A study of Mus musculus with 6 samples.

Results

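The genes of cellular iron and copper transport described here are Slc40a1, Slc11a1, Cybrd1, Steap3, Cp, Aco1, Slc31a1 and Slc31a2. These 8 genes, of 7659 with a named transcript cluster, were taken by symbol from clusters annotated with a single gene. They were chosen by known role with the siDicer and siScr values of these arrays in view, so their differences between these groups are a description, and counts of calls among them are printed only beside the share over all tested genes.

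Total RNA was measured on Affymetrix Clariom D mouse arrays in Melan-a cells, which are immortalised, pigmented mouse melanocytes of strain C57BL/6, labelled female. In the siDicer group (3 arrays) the cells received an siRNA against Dicer, the enzyme that makes mature microRNAs from their precursors, and in the siScr group (3 arrays) a control siRNA. Both groups were grown with serum and 200 nM of the phorbol ester TPA, received 50 pmol of siRNA per well with a lipid reagent and magnetic particles, and carry the same time label, 48 h. The treatment protocol describes a lysis earlier than that label. Each replicate number is 1 passage shared by both groups, 47, 54 and 56, and all samples come from this 1 line.

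Mammalian cells take up iron by endocytosis of transferrin or through divalent metal carriers, reduce it on membranes, store it in ferritin and release it through ferroportin, the product of Slc40a1. Iron regulatory proteins bind hairpins in the messenger RNAs of these proteins and set their translation or stability, a step that transcript levels show only in part. Copper enters through the high-affinity transporter of Slc31a1 and is needed by tyrosinase, the enzyme that starts melanin synthesis, which ties copper handling to pigment cells.

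The arrays were alike, with medians of log2 4.63 to 4.68 and correlations of 0.993 to 0.997 between them. Dicer1 was not analysed here, so the knockdown was not checked. Clusters of chromosomes 1 to 4 were analysed. The melanocyte markers were high, with 5 of 23 measured at gene means from log2 8.08 (Hps3) to 12.83 (Tyrp1). The 15 measured leukocyte markers lay between 2.84 (Ptprc) and 5.69 (Spi1), and the 8 keratinocyte markers between 2.70 (Lce1a1) and 6.90 (Flg). The 8 fibroblast markers lay between 3.91 (Prrx1) and 10.75 (Fn1), so high signals were not limited to melanocyte markers. All 8 genes had a mean signal above the 30th percentile of genes (log2 4.15) used as the limit for testing, each was read by 1 cluster, and 5361 genes were tested.

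Before the values, the regions upstream of the copper pair, Slc31a2 and Slc31a1, are shown. They were chosen because the genes are close together on chromosome 4, code for related proteins, and had differences of opposite sign over all arrays. The difference of Slc31a2 came from passage 54. With passage 54 left out it was -0.0034, the same sign as in Slc31a1 (-0.12). The stretches are the first 100 bases (positions -250 to -151) of the window of 250 bases before a RefSeq start, from GRCm38.p6, plus strand, at chr4:62286179-62286278 for Slc31a2 and chr4:62360451-62360550 for Slc31a1. Capitals mark every match to the motifs searched.
Slc31a2: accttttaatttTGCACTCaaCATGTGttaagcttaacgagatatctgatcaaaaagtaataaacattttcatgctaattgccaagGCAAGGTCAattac
Slc31a1: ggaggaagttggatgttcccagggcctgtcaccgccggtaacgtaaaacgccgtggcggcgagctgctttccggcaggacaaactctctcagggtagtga

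The motifs were searched on both strands in 32851 windows of this length, 11 of them belonging to 7 of the 8 genes, without Slc40a1. In Slc31a2 the first match is a metal response element (TGCACNC, at -238 to -232), the letters read by the metal-sensing factor Mtf1, which 10.4% of all windows hold. The second is CATGTG, the core of the M-box bound by the melanocyte factor Mitf (at -229 to -224, in 12.3% of windows). The third is an antioxidant response element (TGACNNNGC, here on the minus strand, at -164 to -156, in 10.2% of windows). The 3 matches do not overlap, and none of the other 10 windows, which belong to 6 genes, held any of the 3. The E-box CACGTG (6.02% of windows) and the metal response element TGCGCNC (12.5%) were found in 0 of the 11 windows. A match is a string of letters and was not tested as a binding site.

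Of the 8 genes, the one for iron release had the largest difference between the groups. Slc40a1 codes for ferroportin, the known iron exporter of vertebrate cells (transcript cluster TC0100002285.mm.1, chromosome 1). Its log2 signals were 6.30, 6.92 and 6.59 in siDicer at passages 47, 54 and 56, against 5.94, 6.20 and 6.17 in siScr. Every siDicer array was above every siScr array, and the gap between the groups was narrow, since the siDicer array of passage 47 lay next to the siScr array of passage 54.

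Slc40a1 averaged 6.61 ± 0.31 in siDicer and 6.10 ± 0.14 in siScr (SD, n = 3 each), a log2 difference of 0.50 with a standard error of 0.15, or 1.42-fold. That error is from the fit without a block and includes variation over passages, and with passage as a block it was 0.081. The difference was 0.36 at passage 47, 0.72 at passage 54 and 0.43 at passage 56. The siDicer arrays ranged over 0.62 log2 units and the siScr arrays over 0.26. Of all tested genes, 99.3% had a smaller difference in either direction, which describes how the gene was chosen. The log2 differences of the other 7 genes lay between -0.11 and 0.22.

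**Figure D1:**
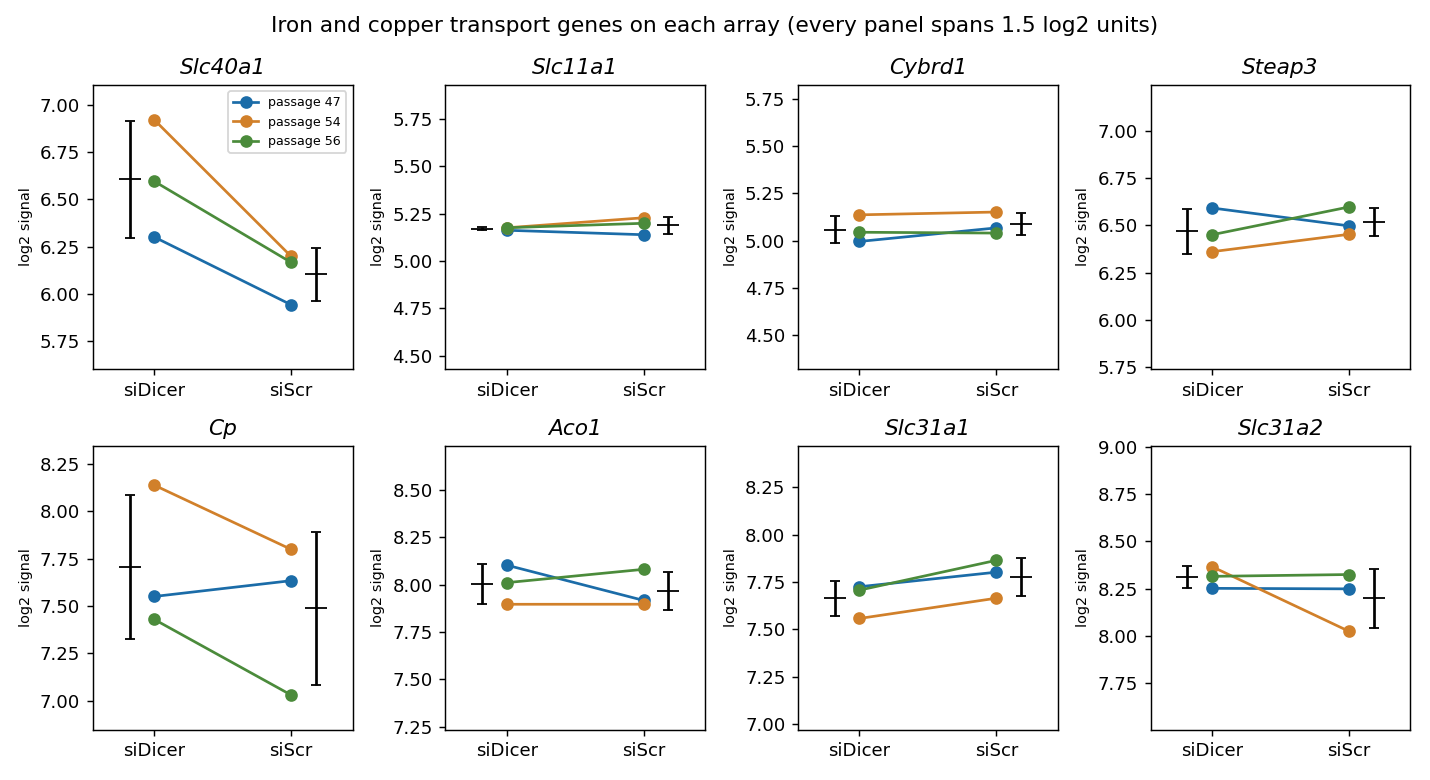
Log2 signal of each gene on each array, siDicer left and siScr right, with lines joining the arrays of 1 passage and black bars for the group mean ± SD (n = 3). In Slc40a1 all siDicer arrays (6.30 to 6.92) sit above all siScr arrays (5.94 to 6.20), while in the other 7 panels the groups overlap.

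Groups that do not overlap were found in 1 of the 8 genes (Slc40a1), where 14.5% of tested genes had them and 6.68% had every siDicer array on top. Without a block for passage, 0 of the 8 genes passed an adjusted p of 0.05 over all tested genes (limma). In that fit 0.0187% of tested genes passed and 457 of 5361 had an unadjusted p under 0.05. When passage was a block, 1 of the 8 passed (Slc40a1, upward), where 1.73% of tested genes passed and 1.14% passed upward. It did not pass in that fit without passage 47, without passage 54 or with dim genes kept in, and passed without passage 56. Nothing is read from these counts, since the contrast was used to choose the genes.

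Over the 6 arrays the genes whose pattern was most like that of Slc40a1 were Nmur1 (Pearson correlation 0.99), a receptor for the neuropeptide neuromedin U, Olfml2b (0.98), an olfactomedin-like extracellular protein, and Ror1 (0.97), a Wnt5a receptor. They share the arrays and the difference between groups with Slc40a1. Ror1 differed by 0.56 between siDicer and siScr, with 6.31 ± 0.23 in siDicer and 5.75 ± 0.13 in siScr (SD, n = 3 each).

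Cp, which codes for ceruloplasmin, a copper-carrying ferroxidase that oxidises iron as it leaves the cell through ferroportin, had the second largest difference. Its log2 signals (TC0300000137.mm.1, chromosome 3) were 7.55, 8.14 and 7.43 in siDicer, against 7.63, 7.80 and 7.03 in siScr. The groups overlapped, and in both of them the array of passage 54 was the highest and that of passage 56 the lowest.

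Cp averaged 7.71 ± 0.38 in siDicer and 7.49 ± 0.40 in siScr (SD, n = 3 each), a log2 difference of 0.22 with a standard error of 0.23. It was -0.083 at passage 47, 0.34 at passage 54 and 0.40 at passage 56. Without the siScr array of passage 56 the difference was -0.011, and without the siScr array of passage 54 it was 0.37. The difference over all arrays was smaller than the SD of each group, a spread that includes the variation over passages. With passage as a block its standard error was 0.099, and at passage 47 the difference had the other sign.

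Aco1 codes for iron regulatory protein 1, which is an aconitase when it carries an iron-sulfur cluster and binds iron-responsive hairpins when it does not. Its log2 signals (TC0400000341.mm.1, chromosome 4) were 8.10, 7.90 and 8.01 in siDicer and 7.92, 7.90 and 8.08 in siScr. The arrays of passage 54 were the lowest of their group in both cases and differed by less than 0.01. It averaged 8.003 ± 0.103 in siDicer and 7.965 ± 0.101 in siScr (SD, n = 3 each), a difference of 0.039 with a standard error of 0.083.

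The reductases that supply ferrous iron differed little. Steap3, the endosomal reductase that acts on iron delivered by transferrin, had log2 signals of 6.59, 6.36 and 6.45 in siDicer and 6.50, 6.45 and 6.60 in siScr (TC0100002965.mm.1, chromosome 1). Its difference was -0.048 with a standard error of 0.079, and it was 0.095, -0.092 and -0.15 at passages 47, 54 and 56. Cybrd1, a ferric reductase known from the duodenum, had 5.00, 5.14 and 5.04 in siDicer and 5.07, 5.15 and 5.04 in siScr (TC0200001032.mm.1, chromosome 2). Its difference was -0.027 with a standard error of 0.063. Its mean signal was at the 45th percentile of genes, within the range of the leukocyte markers, and signal over background was not measured. In both genes the groups overlapped and the sign was not the same at all passages.

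Slc11a1, a proton-coupled metal transporter of phagosomes in macrophages, varied least. Its log2 signals were 5.16, 5.18 and 5.18 in siDicer and 5.14, 5.23 and 5.20 in siScr (TC0100000632.mm.1, chromosome 1). The difference was -0.018 with a standard error of 0.054. The mean over the 15 leukocyte and macrophage markers was 4.39 to 4.42 over the siDicer arrays and 4.39 to 4.47 over the siScr arrays. Ptprc, the leukocyte marker CD45, was the dimmest of them, at 2.84 in siDicer and 2.84 in siScr. Of the 15 markers 11 were above the limit for testing, and the highest was Spi1 at 5.69.

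Of the copper pair, Slc31a1, the high-affinity copper importer, was lower in siDicer at all 3 passages. Its log2 signals (TC0400000698.mm.1, chromosome 4) were 7.72, 7.56 and 7.71 in siDicer, against 7.80, 7.66 and 7.86 in siScr. The groups overlapped, because the siScr array of passage 54 lay below the siDicer arrays of passages 47 and 56. It averaged 7.66 ± 0.092 in siDicer and 7.78 ± 0.10 in siScr (SD, n = 3 each). The difference was -0.11, with a standard error of 0.081 without a block and 0.060 with passage as a block. The difference was -0.077, -0.11 and -0.16 at passages 47, 54 and 56.

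Slc31a2, a related protein that acts on copper in endosomes and lysosomes and whose upstream stretch is printed above, had log2 signals of 8.25, 8.37 and 8.31 in siDicer and 8.25, 8.02 and 8.32 in siScr (TC0400000696.mm.1, chromosome 4). The groups overlapped, and the siScr array of passage 54 was the low one. It averaged 8.31 ± 0.057 in siDicer and 8.20 ± 0.16 in siScr (SD, n = 3 each), a difference of 0.11 with a standard error of 0.090. At passages 47 and 56 it was 0.0028 and -0.0096, against 0.34 at passage 54, and without the siScr array of passage 54 it was 0.024. The difference of this gene thus came from 1 passage.

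**Figure D2:**
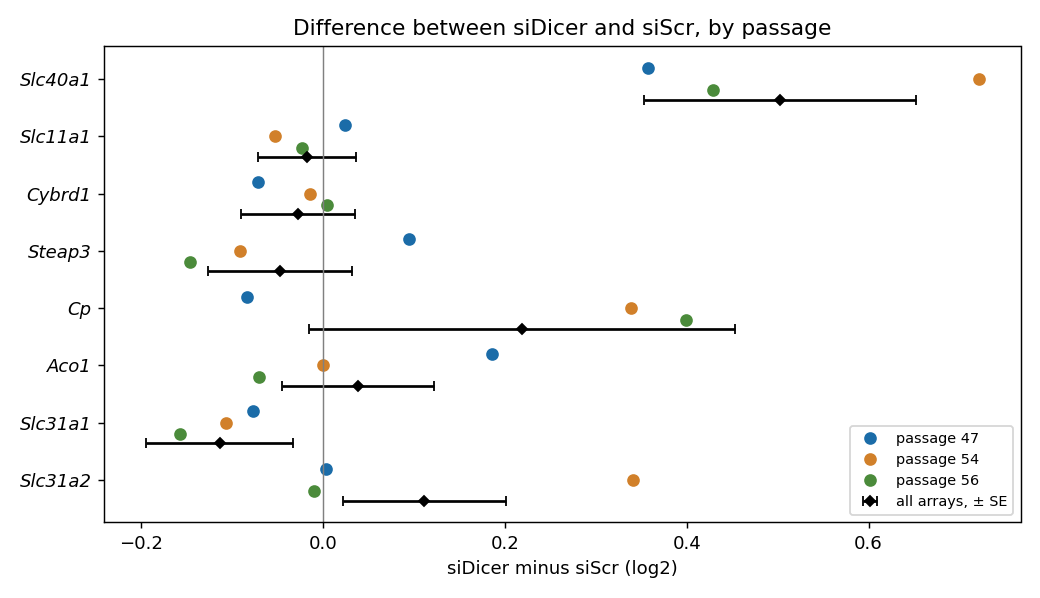
Difference of siDicer minus siScr (log2) for each gene at passages 47, 54 and 56 (coloured points) and over all arrays (black). The black bars are standard errors from the fit without a block, which include variation over passages. Slc40a1 is above 0 at all passages (0.36 to 0.72), Slc31a1 is below 0 at all passages (-0.16 to -0.077), and the other genes cross 0.

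Counted together, 4 of the 8 genes were higher and 4 lower in siDicer. Their median difference was 0.010, against -0.0093 over all tested genes, and the median size of the difference was 0.080, against 0.064. The sign was the same at all 3 passages in 2 of the 8 (Slc40a1 and Slc31a1), where 36.1% of tested genes had this.

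Passages were then compared with each other over both groups, a comparison balanced against the siRNA, with 1 array of each group at each passage. A passage is 1 culture, so passage number and the culture or its handling cannot be told apart. Cp varied most. Its mean over both groups was 7.59 at passage 47, 7.97 at passage 54 and 7.23 at passage 56, a spread of 0.74, which was larger than that of 99.2% of tested genes. The limma F test of passage gave Cp an adjusted p of 0.0576, which missed the threshold, with a range of 0.0197 to 0.177 over the alternatives, 6 of 12 of which passed. The mean over the 8 fibroblast markers ran highest at passage 54 and lowest at passage 56, at 5.79, 5.89 and 5.66 in siDicer and 5.81, 5.85 and 5.66 in siScr at passages 47, 54 and 56. Single members differed, and 5 of the 8 were highest at passage 54 in both groups, 2 (Fn1 and Postn) lowest at passage 56 in both, 2 (Col3a1 and Col5a2) lowest at passage 47 in both, and 0 had the order of Cp in both. Of the fibroblast markers, 5 of 8 were above the limit for testing. The peak at passage 54 was not particular to them. The leukocyte marker means were also highest there, at 4.42 in siDicer and 4.47 in siScr, as were the keratinocyte marker means, at 4.43 and 4.47. The array medians were highest there too, at 4.65 in siDicer and 4.68 in siScr. The part of the markers in the values of Cp was not tested.

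Slc40a1 had the next largest spread over passages, with means of 6.12, 6.56 and 6.38 at passages 47, 54 and 56, lowest at passage 47 in both groups. The limma F test gave an adjusted p of 0.135, with a range of 0.0678 to 0.454 over the alternatives. Slc31a1 was lowest at passage 54 in both groups, with means of 7.76, 7.61 and 7.79, and did not pass (limma, adjusted p = 0.404). The mean over the 5 melanocyte markers was lowest there too, at 10.53, 10.15 and 10.43 in siDicer and 10.72, 10.25 and 10.57 in siScr, with all 5 lowest at passage 54 in both groups, and their part in these values was not tested. The spreads of the other genes lay between 0.051 (Slc11a1) and 0.15 (Aco1), against a median of 0.13 over all tested genes, and Slc31a2 had its lowest siScr array and its highest siDicer array at passage 54. The passage test called 0 of the 8 genes, where 1.85% of tested genes passed. In that limma F test 2 of the 8 (Cp and Slc40a1) had an unadjusted p under 0.05, as had 862 of 5361 tested genes. Nothing is read from this count.

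**Figure D3:**
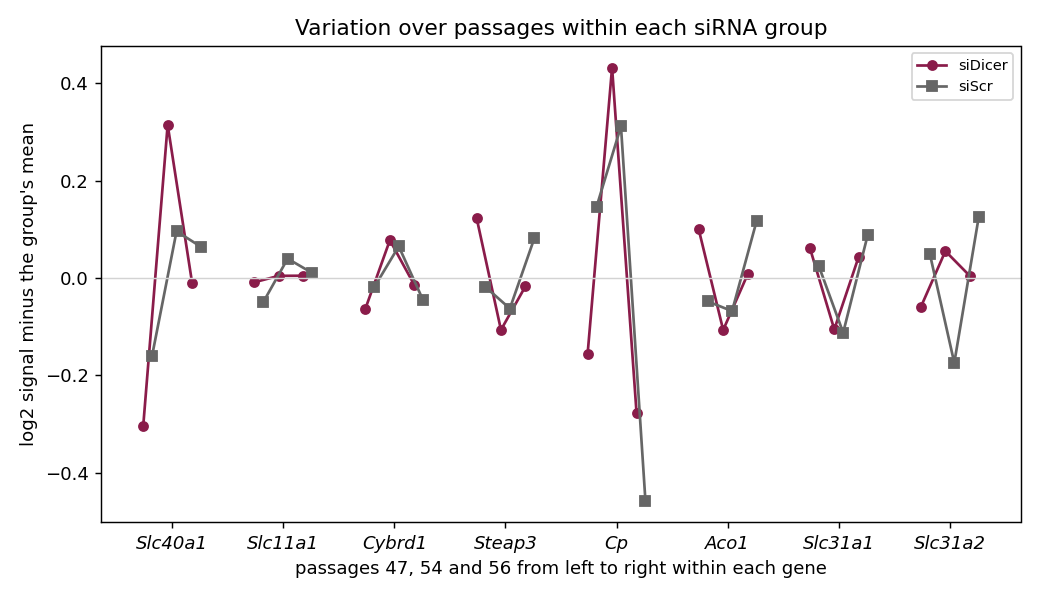
Log2 signal of each gene minus the mean of its siRNA group, at passages 47, 54 and 56 from left to right, for siDicer (circles) and siScr (squares). In Cp both groups peak at passage 54 and are lowest at passage 56, and in Slc40a1 both are lowest at passage 47.

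Other genes of metal handling were taken from 8 lists of related pathways, leaving out the 8 genes above. Of 37 such genes tested, 19 were higher and 18 lower in siDicer, with a median difference of 0.0044. Without a block 0 passed over all tested genes (limma) and 7 of the 37 had an unadjusted p under 0.05, as had 457 of 5361 tested genes. The block for passage gave 1 that passed, in the downward direction, where 0.597% of tested genes passed downward, and 12 of the 37 with an unadjusted p under 0.05, as had 740 of 5361. The groups did not overlap in 11 of the 37, where 14.5% of tested genes had this, and nothing particular to the lists was tested.

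The gene that passed was Slc39a10, a zinc importer of the plasma membrane. Its log2 signal averaged 7.68 ± 0.057 in siDicer and 8.05 ± 0.14 in siScr (SD, n = 3 each), a difference of -0.37 (limma adjusted p = 0.0431 when passage was a block and 0.238 when it was not). It was lower in siDicer at all 3 passages, by between -0.42 and -0.27. The block fit called 0 of the 37 genes when any 1 passage was left out. The 9 tested zinc and manganese carriers had 4 higher and 5 lower members and a median of -0.0055.

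Among iron regulators 4 of 9 tested genes were higher and 5 lower, with a median of -0.075, and 0 passed in either fit. The bone morphogenetic protein Bmp2 differed by -0.24, with 5.07 ± 0.052 in siDicer and 5.31 ± 0.012 in siScr. Hjv, hemojuvelin, a co-receptor for such ligands in the liver, was dim (4.70 in siDicer and 4.84 in siScr) and differed by -0.14. The receptors Acvr1 and Bmpr2 differed by 0.15 and -0.16. The adjusted p-values of these 4 genes ran from 0.238 to 0.630 (limma without a block).

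Heme genes were higher in 5 of 6 tested members, with a median of 0.089, and 0 passed in either fit. Urod, a decarboxylase of heme synthesis, had 7.40 ± 0.045 in siDicer and 7.15 ± 0.093 in siScr (SD, n = 3 each). The difference was 0.25 (limma adjusted p = 0.322 without a block and 0.173 when passage was a block). Blvra, which reduces biliverdin, differed by 0.14, Alad, another enzyme of heme synthesis, by 0.13, and the heme exporter Flvcr1 by -0.057.

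The remaining lists were small on the chromosomes analysed. Of iron uptake, export and storage genes Lcn2, a siderophore-binding protein, differed by -0.054, Slc39a8, a zinc, manganese and iron carrier, by 0.026 and the endocytic receptor Lrp2 by -0.017. Of the iron-sulfur cluster genes the cysteine desulfurase Nfs1 differed by 0.088, Bola1 by -0.097 and Ciao1 by 0.020. Mtf1, the factor that binds metal response elements, had 7.18 ± 0.064 in siDicer and 7.05 ± 0.061 in siScr. The difference was 0.13 (limma adjusted p = 0.663 without a block and 0.450 when passage was a block). Of the copper enzymes Pam, which amidates peptides, differed by 0.20 and Dbh, which makes noradrenaline, by 0.0044. None of these passed in either fit. Lcn2, Slc39a8, Lrp2 and Dbh were dim, with siDicer means of 4.72, 4.22, 4.32 and 4.51 against a testing limit of 4.15. Signal over background was not measured, so their small differences say little.

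Of 7 tested genes of oxidative stress and ferroptosis 3 were higher and 4 lower, with a median of -0.077, and 0 passed in either fit. Nfe2l2, the factor that drives antioxidant response elements, had 9.28 ± 0.090 in siDicer and 9.14 ± 0.099 in siScr (SD, n = 3 each). Its difference was 0.15, and it lay between 0.14 and 0.16 at all 3 passages (limma adjusted p = 0.688 without a block and 0.360 when passage was a block). Gstm1, a glutathione transferase, differed by -0.26, the glutathione-degrading enzyme Chac1 by -0.44 and the cystine carrier Slc7a11 by -0.59. At passages 47, 54 and 56 the difference was -0.93, -0.21 and -0.19 in Chac1 and -1.39, -0.32 and -0.067 in Slc7a11. In both genes the siScr array of passage 47 was the highest of all arrays, at 6.99 in Chac1 and 6.65 in Slc7a11.

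**Figure D4:**
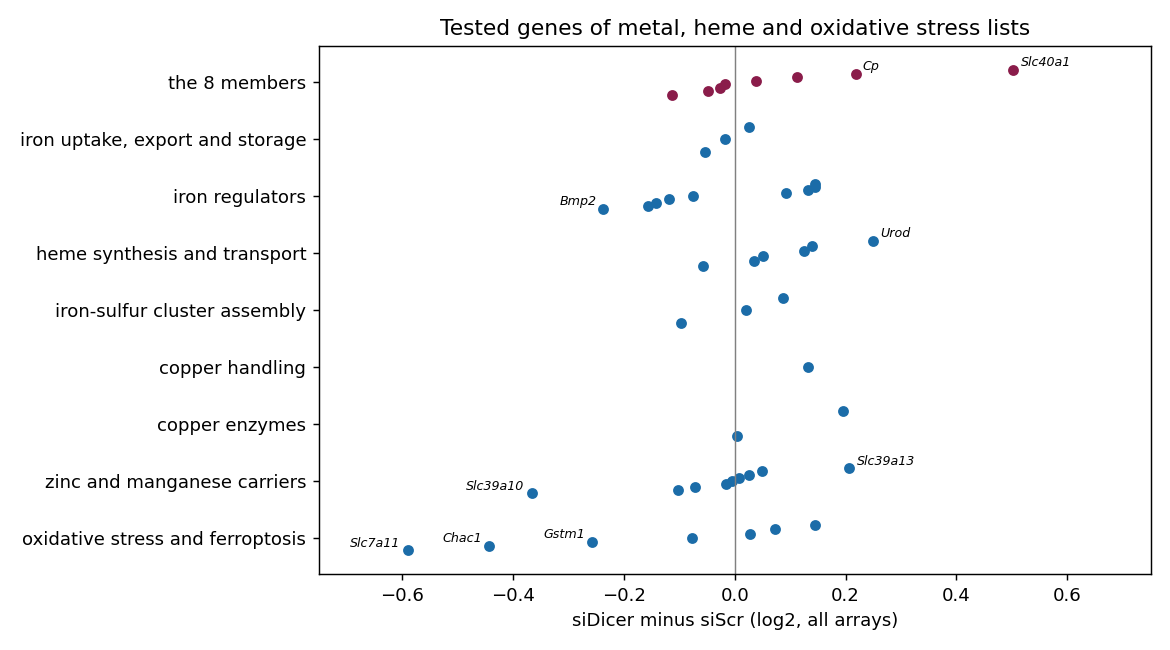
Difference of siDicer minus siScr (log2, all arrays) for the 8 iron and copper transport genes (top row) and for the tested genes of each related list, 1 point per gene, with names beyond 0.2 in either direction. Slc40a1 (0.50) lies above every other point and Slc7a11 (-0.59) below.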

How the data were processed

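RNA of 3 siDicer and 3 siScr samples was measured on 6 arrays. The deposited values are log2 signals per transcript cluster on a common scale, made with Affymetrix Expression Console per the submitters' processing notes. The sources used here do not give the summarisation, normalisation, centring or genome build, and coordinates are printed for the RefSeq sequences alone. The range of the values (1.70 to 13.70) shows a log2 scale. Signal over background was not measured. Precision is limited by the number of arrays. Replicates are separate biological samples, per the series' design text.

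Of 16383 clusters, 7715 had 1 gene symbol, 270 several and 8398 none, by the platform annotation with 320 symbols updated through RefSeq. The cluster with the highest mean stood for a gene. Genes under the 30th percentile of means were left out of tests. The test was that of limma 3.58.1 under R 4.3.3, with lmFit and eBayes with a variance trend, two-sided, with Benjamini-Hochberg adjustment over 5361 genes, and passage by an F test in a fit with siRNA group and passage. The main fit has no block, and it gave the standard errors and the p-values between siDicer and siScr unless the block is named. On simulated data with 200 changed genes it recovered 72.5% at a log2 change of 0.5 and 97% at 1. The simulated noise was independent between arrays, without shared passage effects, and many changed genes ease the adjusted threshold. These shares thus do not give the recovery on the real arrays, where the main fit called 1 of 5361 genes.

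Samples are paired by replicate number, each of which is 1 passage in both groups per the labels. Deviations from group means correlated at 0.42, 0.62 and 0.070 for passages 47, 54 and 56. For arrays of different passages they ran from -0.54 to 0.29. The highest of these, siDicer of passage 47 with siScr of passage 56, was above the matched arrays of passage 56. The 8 genes and all lists were chosen with earlier results of these data known. The rule for naming genes took all 8, the genes of each list that passed in either fit or else up to 4 with the smallest p, and the 3 most correlated with Slc40a1. Of the further lists the markers are given as levels, and the keratinocyte markers (8 measured) averaged 4.35 to 4.43 over the siDicer arrays and 4.34 to 4.47 over the siScr arrays. Alternatives were quantile normalisation, median centring, other filters, no variance trend, array weights, the passage block and leaving out each array. Leaving out each passage was added after the values were seen.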

Additional observations from a re-analysis of the deposited data

How the results depend on the processing

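Of the 8 genes, Slc40a1 and Slc31a1 kept the sign of their difference in all 13 alternatives and the other 6 turned in at least 1. Many of these alternatives could not turn a sign. The passage block leaves every difference as it is. Leaving out a passage cannot turn a gene that has the same sign at all passages. Leaving out an array cannot turn Slc40a1, whose groups do not overlap. With 1 array left out, Slc40a1 ranged from 0.35 (without siDicer replicate 2) to 0.65, Cp from -0.011 to 0.37, Aco1 from -0.011 to 0.097, Steap3 from -0.11 to 0.0055, Cybrd1 from -0.066 to 0.0051, Slc11a1 from -0.043 to 0.0022, Slc31a1 from -0.17 to -0.061 (without siDicer replicate 2) and Slc31a2 from 0.024 to 0.17. None moved by more than 1 SD pooled over both groups, though some moved by more than the SD of a single group (Slc40a1 in siScr, Slc11a1 and Slc31a2 in siDicer). Each had 1 cluster, so averaging clusters changed nothing.

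The count of genes passing between siDicer and siScr was 1, and was 93 with passage as a block (61 higher, 32 lower), 14 with array weights and 0 to 2 with 1 array left out, with 0 without siDicer replicate 3 and 2 without siScr replicate 2. With the replicate block it was 5, 19 and 153 without passages 47, 54 and 56. Of the 37 related genes 0 passed, or 1 with passage as a block. Among these 37 and the 8 genes, the replicate block changed no call beyond those of Slc39a10 and Slc40a1. The count passing the passage test was 99, and 202 after median centring, 58 with dim genes kept in, 172 with the filter at the median, 165 with array weights and 14 to 308 with 1 array left out. Quantile normalisation and median centring moved the median difference of all genes by 0.0034 and 0.012.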
